A study of Mus musculus with 16 samples.

Results

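Chromosome 11 of the mouse carries several clusters of odorant receptor genes. The receptors described here are the 78 gene probesets that the array design places on chromosome 11 and annotates with an Olfr symbol, 1 per receptor, with 2 probesets of pseudogenes left out. They are 78 of 22206 gene probesets and 78 of 1080 odorant receptor probesets. All 78 matched a RefSeq gene by gene ID, and RefSeq lists 83 protein-coding Olfr genes on this chromosome. The other 5 (Olfr1375, Olfr20, Olfr462, Olfr463 and Olfr56) had no probeset under the rule and were not analysed here.

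Odorant receptors are G protein-coupled receptors of olfactory sensory neurons. A mature neuron transcribes 1 allele of 1 receptor gene, so the mRNA of a receptor marks the neurons that chose it. An odorant that binds the receptor raises cyclic AMP through the G protein subunit Gnal and the cyclase Adcy3, and the neuron fires. S100a5, a calcium-binding protein, is transcribed in these neurons depending on their activity, and in S100a5-tauGFP mice a GFP fused to tau is made where S100a5 is active. GFP+ cells are therefore enriched for recently active neurons, and GFP- cells hold less active neurons together with the other cells of the olfactory mucosa.

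All groups came from S100a5-tauGFP mice of both sexes, 24 in all and 7 to 12 weeks old. Each was housed singly for 40 h in a chamber supplied with clean air at 3.1 L/min, and from 26 h it received 10 s pulses every 20 min. The pulses carried an odorant for one set of mice and filtered air (vehicle) for the other. The sample labels call the odorant bourgeonal, whereas the title of the series names indole, so it is called the odorant below. Olfactory mucosa was dissociated and sorted into GFP+ and GFP- cells, pooled from 3 mice per sample, which gave 4 Clariom S arrays in each of 4 groups: odorant GFP+, odorant GFP-, vehicle GFP+ and vehicle GFP-. With 24 mice in pools of 3 there were 8 pools, so the GFP+ and GFP- arrays of a treatment and number share their mice. How the sexes were spread over the pools is not stated.

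Values are log2 probeset signals. The background level of an array, the 95th percentile of 23 antigenomic control probesets, was 6.57 to 6.87, and the median over gene probesets was 6.29 to 6.38 on GFP+ arrays and 6.64 to 6.76 on GFP- arrays. Of the 78 receptors, 46 to 53 exceeded the background level on each GFP+ array and 59 to 65 on each GFP- array. S100a5 averaged 15.99 ± 0.31 in odorant GFP+ cells and 14.85 ± 0.28 in odorant GFP- cells, and 15.97 ± 0.26 in vehicle GFP+ cells and 15.04 ± 0.15 in vehicle GFP- cells (log2 signal, SD, n = 4 each), so it was higher in the GFP+ fraction (adjusted p = 0.00247 with the odorant and 0.00236 with vehicle). Omp, which marks mature sensory neurons, lay between 18.59 and 18.69 in all 4 groups. Of 12 immune cell markers, 10 were lower in GFP+ cells, and their mean level per array was 5.69 to 6.19 in odorant GFP+ cells, 10.6 to 12.1 in odorant GFP- cells, 6.13 to 6.77 in vehicle GFP+ cells and 10.8 to 12.3 in vehicle GFP- cells.

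In gene order the 78 receptors fall into 7 groups separated by more than 500 kb. The largest run from Olfr376 to Olfr412 (29 receptors), from Olfr30 to Olfr311 (21) and from Olfr1396 to Olfr1380 (18). The others run from Olfr1378 to Olfr54 (4), from Olfr222 to Olfr225 (3) and from Olfr1373 to Olfr1371 (2), and Olfr464 stands alone. The older MOR names, which RefSeq keeps as synonyms, sort receptors by protein sequence into families. They place 75 of the 78 receptors in 20 families, of which MOR256 (20 receptors), MOR135 (17), MOR255 (6) and MOR275 (6) are the largest here. Every receptor on the array that carries a MOR135, MOR255 or MOR275 name lies on chromosome 11, whereas another 28 MOR256 receptors lie on other chromosomes.

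MOR135 was the family with the most receptors lower in GFP+ cells, and its upstream sequences are shown for that reason. RefSeq (GRCm38.p6) gives a window from 250 bases before to 50 bases after the annotated start for 68 of the 78 receptors, but for 45 of them the start is the ATG of the coding sequence, so the window is no promoter. The 5 MOR135 receptors below are those whose annotated start is not an ATG and whose gene model spans more than 2000 bases. Capitals mark TAATTA and TAATGA on either strand, short homeodomain-type motifs of the kind bound by Lhx2, a regulator of receptor genes.
Olfr1 (chr11:73399446-73399745, minus strand): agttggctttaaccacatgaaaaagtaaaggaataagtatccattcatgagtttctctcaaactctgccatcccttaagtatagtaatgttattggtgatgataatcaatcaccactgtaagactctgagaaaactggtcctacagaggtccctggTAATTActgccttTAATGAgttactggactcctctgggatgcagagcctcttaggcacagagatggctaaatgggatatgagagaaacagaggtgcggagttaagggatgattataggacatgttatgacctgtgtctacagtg
Olfr378 (chr11:73428428-73428727, minus strand): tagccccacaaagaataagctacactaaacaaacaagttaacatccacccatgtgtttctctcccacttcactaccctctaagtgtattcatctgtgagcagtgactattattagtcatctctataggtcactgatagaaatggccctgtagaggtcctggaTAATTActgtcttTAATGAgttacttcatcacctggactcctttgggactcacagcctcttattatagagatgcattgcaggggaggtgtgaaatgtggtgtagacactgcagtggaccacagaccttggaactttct
Olfr389 (chr11:73780540-73780839, minus strand): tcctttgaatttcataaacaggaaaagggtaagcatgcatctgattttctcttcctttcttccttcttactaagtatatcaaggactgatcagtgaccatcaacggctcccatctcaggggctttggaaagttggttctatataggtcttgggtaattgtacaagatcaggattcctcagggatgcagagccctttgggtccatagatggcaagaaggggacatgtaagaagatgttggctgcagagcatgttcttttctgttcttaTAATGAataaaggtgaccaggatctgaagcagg
Olfr391 (chr11:73802935-73803234, minus strand): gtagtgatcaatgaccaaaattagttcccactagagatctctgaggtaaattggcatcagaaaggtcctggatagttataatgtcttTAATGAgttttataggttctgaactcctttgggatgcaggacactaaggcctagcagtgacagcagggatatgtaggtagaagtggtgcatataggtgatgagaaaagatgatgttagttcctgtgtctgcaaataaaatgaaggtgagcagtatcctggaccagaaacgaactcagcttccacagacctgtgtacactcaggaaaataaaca
Olfr392 (chr11:73816828-73817127, minus strand): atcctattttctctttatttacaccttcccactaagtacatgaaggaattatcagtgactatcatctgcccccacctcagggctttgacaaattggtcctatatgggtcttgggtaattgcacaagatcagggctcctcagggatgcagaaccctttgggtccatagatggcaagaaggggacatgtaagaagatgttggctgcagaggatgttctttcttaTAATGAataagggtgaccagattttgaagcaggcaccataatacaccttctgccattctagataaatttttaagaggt
TAATGA, sought on both strands like all motifs here, was in 5 of the 5 windows, against 31.9% of 235 odorant receptor windows of other chromosomes with a start that is not an ATG and 9.78% of all 32851 windows of the table. TAATTA was in 2 of the 5 (19.1% and 5.29%), and its matches in Olfr1 and Olfr378 began 94 and 88 bases before the start. The TAATGA match in Olfr389 lay after the start, at base 18, and those in the other windows lay before it. Median GC content was 42.3% in the 5 windows, 36.3% in the other receptor windows and 52.7% in all windows. CCCNNGGG, the core of the O/E motif bound by Ebf factors, was in 0 of the 5 (8.09% and 13.7%). The 5 windows are related sequences, with pairwise identity between 38.5% (Olfr378 and Olfr391) and 64.6% (Olfr389 and Olfr392), so they are not independent examples. Among all receptors of the chromosome whose annotated start is not an ATG, the motif TAATGA was in 1 of 3 that were higher in GFP+ cells with vehicle, in 7 of 14 that were lower and in 4 of 6 that did not pass the test. The 14 lower receptors include the 5 with printed windows, which make up 5 of those 7. A match is a description of letters and not a binding site.

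The comparison of the fractions asks which receptors differ between GFP+ cells, in which S100a5 was higher, and GFP- cells. S100a5 was well above background in GFP- cells too, so the fractions do not separate an active from an inactive S100a5 gene. With the odorant, 15 of the 78 receptors were higher in GFP+ than in GFP- cells and 25 were lower (adjusted p under 0.05), and 38 did not pass the test. Of all gene probesets 3.57% were higher and 7.84% lower (11.4% in all), and of the 1002 odorant receptors on other chromosomes 353 (35.2%) were higher and 239 (23.9%) lower. With vehicle, 19 of the 78 were higher and 27 lower, beside 7.76% and 9.97% of all gene probesets (17.7% in all) and 360 (35.9%) and 248 (24.8%) of the other receptors. The median difference over the 78 receptors was -0.13 with the odorant and -0.17 with vehicle, against 0.36 and 0.34 over the other receptors and 0.10 and 0.08 over all gene probesets. Differences reached from -7.10 to 3.21 with the odorant and from -8.25 to 3.01 with vehicle, so the falls in GFP+ cells spanned a wider range than the rises. The probe sequences were not used here, so signal shared by near-identical receptors cannot be told apart. In pooled cells, fewer neurons that chose a receptor and less of its RNA per neuron cannot be told apart.

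The split between rises and falls depends on how arrays are scaled. With each array's median subtracted, 24 receptors were higher and 24 lower with the odorant (50.0% of calls higher, against 37.5% as deposited), and 25 and 24 with vehicle (51.0% against 41.3%). Under that scaling 34.9% of all gene probesets were higher and 6.84% lower with the odorant, and 46.7% and 7.6% with vehicle. The share of the 78 receptors that were higher, 30.8% with the odorant and 32.1% with vehicle, was then below that of all gene probesets, whereas the share that were lower, 30.8% under both, was above it. That scaling raised the median of all gene probesets to 0.42 with the odorant and 0.45 with vehicle, and the median of the 78 receptors to 0.19 in both. As deposited, the median receptor lay -0.23 with the odorant and -0.25 with vehicle from the median of all gene probesets, and subtracting 1 value from each array leaves this gap as it is by construction. No call turned its direction.

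**Figure D1:**
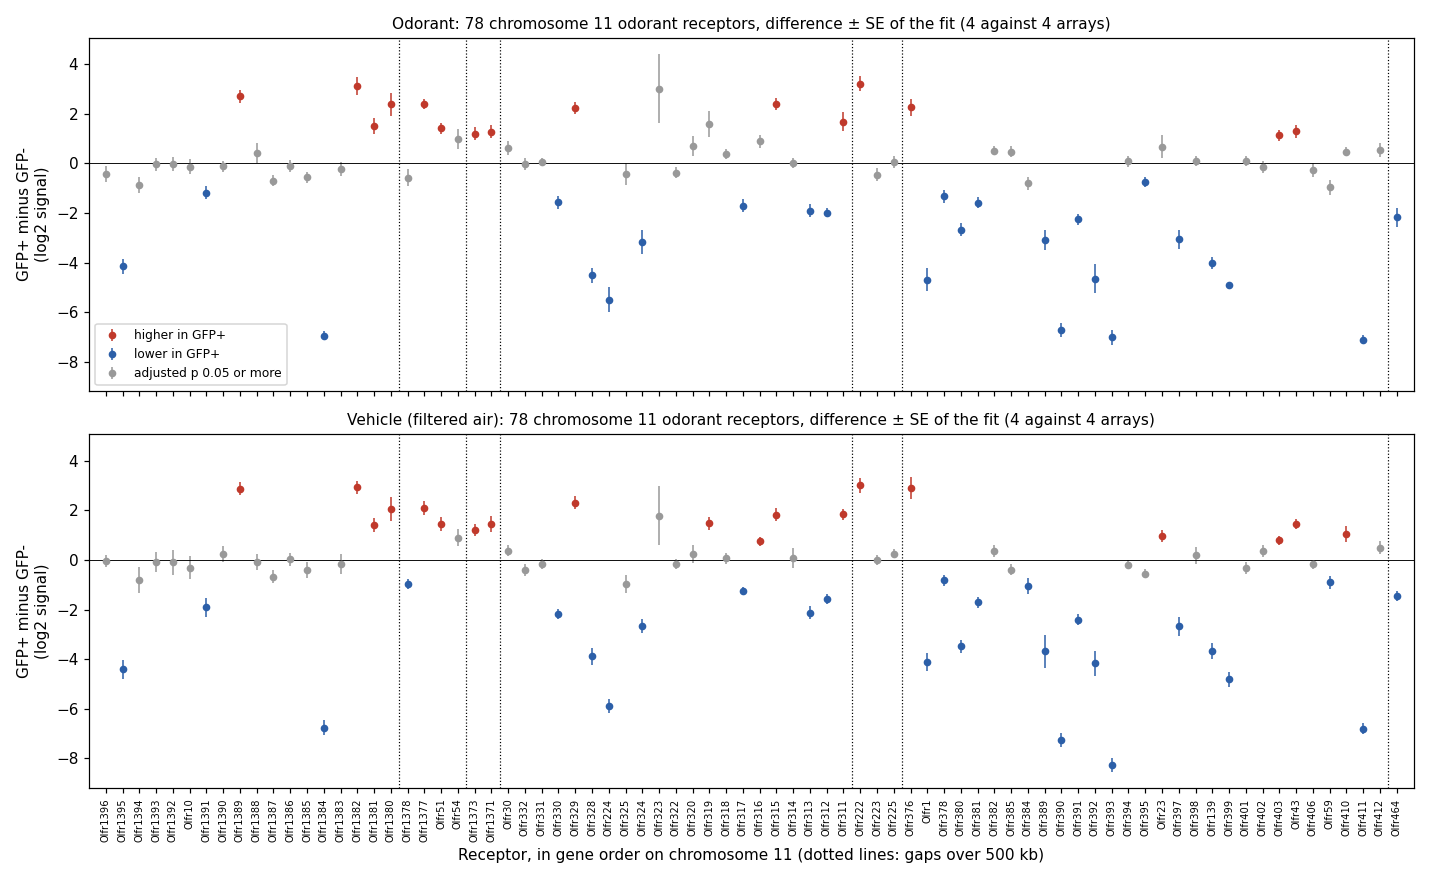
Difference between GFP+ and GFP- cells (log2 signal, GFP+ minus GFP-, ± SE of the fit, 4 against 4 arrays) for the 78 receptors in gene order, with the odorant above and vehicle below. Red points are higher and blue points lower in GFP+ cells at an adjusted p under 0.05, grey points did not pass, and dotted lines mark gaps over 500 kb. The 29 receptors from Olfr376 to Olfr412 hold 14 of the 25 lower receptors with the odorant and 15 of the 27 with vehicle, and the 2 panels have nearly the same profile.

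MOR135, a family of 17 receptors that all lie between Olfr376 and Olfr397, was mostly lower in GFP+ cells. With the odorant 11 of the 17 were lower and 1 was higher, with a median difference of -1.57, and with vehicle 11 were lower and 2 higher, with a median of -1.71. Olfr393 had 7.91, 7.05, 6.75 and 6.84 in odorant GFP+ cells, against 13.55, 14.09, 14.76 and 14.16 in odorant GFP- cells (log2 signal). With vehicle it had 5.25, 6.18, 6.65 and 6.44 in GFP+ cells, against 14.28, 14.73, 14.18 and 14.33 in GFP- cells. Its signal was strong on all 8 GFP- arrays, and on GFP+ arrays it barely left the background level, exceeding it on 4 with the odorant and on 1 with vehicle. The difference was -7.00 ± 0.30 with the odorant, a 128-fold lower signal in GFP+ cells (adjusted p = 1.16e-07), and -8.25 ± 0.28 with vehicle, at least 209-fold lower (adjusted p = 6.63e-08). A fold is given as a lower bound where 1 group was at background.

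Olfr390 had 6.67, 5.96, 5.44 and 5.46 in odorant GFP+ cells, against 12.28, 12.998, 12.65 and 12.44 in odorant GFP- cells. In vehicle mice its values were 5.61, 5.42, 6.24 and 5.0 in GFP+ cells, against 13.05, 13.30, 12.37 and 12.62 in GFP- cells. No GFP+ array exceeded the background level, and GFP+ cells had a signal lower by at least 56.7-fold with the odorant (difference -6.71 ± 0.27) and at least 72.5-fold lower with vehicle (-7.27 ± 0.28). Olfr1, whose window is printed above, had 4.71, 5.78, 5.20 and 5.90 in odorant GFP+ cells, against 11.52, 10.00, 9.64 and 9.14 in odorant GFP- cells. The vehicle arrays gave 7.43, 6.16, 5.70 and 6.33 in GFP+ cells, against 11.08, 10.74, 9.80 and 10.40 in GFP- cells. The groups did not overlap, and the difference was -4.68 ± 0.45 with the odorant and -4.10 ± 0.37 with vehicle (adjusted p = 3.3e-05 and 2.67e-05). The GFP+ groups were at background, so the fall amounts to at least 9.90-fold with the odorant and at least 12.6-fold with vehicle.

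Olfr392, a MOR135 receptor whose window is printed above, varied more between arrays. It had 9.13, 9.73, 6.49 and 7.27 in odorant GFP+ cells, against 12.62, 12.56, 13.19 and 12.83 in odorant GFP- cells. Under vehicle the signals were 9.36, 10.05, 7.72 and 7.57 in GFP+ cells, against 13.03, 12.77, 12.36 and 13.19 in GFP- cells. Arrays 1 and 2 of both GFP+ groups lay above arrays 3 and 4, and all lay below the GFP- arrays, with differences of -4.65 ± 0.59 and -4.16 ± 0.50 (adjusted p = 0.000271 and 0.000206). Olfr389 and Olfr391, whose windows are also printed, differed by -3.10 ± 0.41 and -2.25 ± 0.23 with the odorant and by -3.68 ± 0.66 and -2.41 ± 0.23 with vehicle. Both were at background in GFP+ cells by the group mean. Olfr389 still exceeded the level on 1 odorant GFP+ array and on 3 vehicle GFP+ arrays (7.31, 7.98 and 6.59, with 4.17 on array 4). Its signal was at least 7.04-fold lower with the odorant and at least 8.20-fold lower with vehicle. That of Olfr391 was at least 1.37-fold lower with vehicle, with no fold for the odorant. Olfr378 had the smallest fall of the 5 receptors with windows, -1.32 with the odorant and -0.82 with vehicle. It was at background in both fractions, and its call with vehicle was lost in 6 of 8 fits that each left out 1 array (adjusted p 0.051 to 0.0801; GFP+ arrays 1, 3 and 4 and GFP- arrays 1, 2 and 3).

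MOR135 also held receptors that did not follow this pattern. Olfr394, chosen after its values were seen because it is the neighbour of Olfr393, had 14.67, 14.06, 14.91 and 14.98 in odorant GFP+ cells, against 14.25, 14.56, 14.86 and 14.61 in odorant GFP- cells. With vehicle it had 14.41, 14.74, 14.20 and 14.42 in GFP+ cells, against 14.31, 14.90, 14.76 and 14.55 in GFP- cells. It was strong on all 16 arrays, its fractions overlapped, and the difference was 0.08 (95% interval -0.40 to 0.57) with the odorant and -0.19 (-0.57 to 0.20) with vehicle. Olfr376, at the first position of the cluster, went the other way. It had 6.22, 5.99, 6.65 and 6.90 in odorant GFP+ cells, against 4.18, 3.11, 4.63 and 4.78 in odorant GFP- cells. In vehicle mice its values were 6.40, 6.21, 7.21 and 8.67 in GFP+ cells, against 4.10, 4.13, 4.27 and 4.34 in GFP- cells. Every GFP+ array lay above every GFP- array, by 2.26 ± 0.34 with the odorant and 2.91 ± 0.44 with vehicle, but only 2 GFP+ arrays of each treatment exceeded the background level, and the fold with vehicle was at least 1.36. Olfr23 was higher only with vehicle (0.95 ± 0.25, adjusted p = 0.0233), a call lost in 4 of 8 fits that each left out 1 array (GFP+ arrays 1, 2 and 4 and GFP- array 4; adjusted p 0.0547 to 0.0685).

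**Figure D2:**
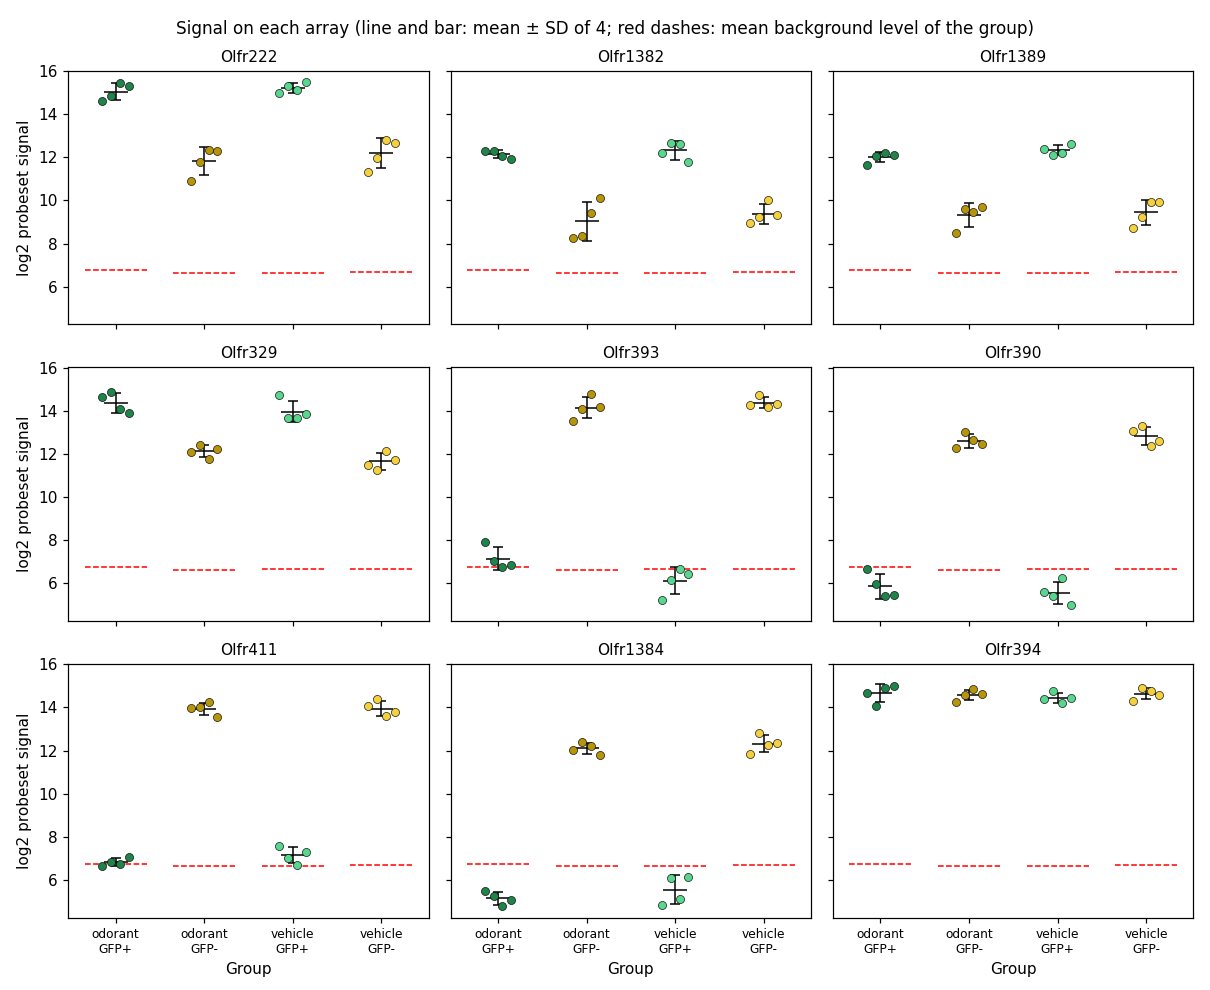
Signal on each array (log2 probeset signal) for 9 receptors, 4 points a group, with the mean and SD as line and bar and the mean background level of the group as red dashes. Olfr222, Olfr1382, Olfr1389 and Olfr329 lie higher in the GFP+ groups, Olfr393, Olfr390, Olfr411 and Olfr1384 lie near or under background there and high in the GFP- groups, and Olfr394 is level across the 4 groups.

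The 6 MOR255 receptors, which lie just beyond MOR135 in the same cluster, held 3 lower receptors under both treatments. Olfr411 had 6.64, 6.85, 6.76 and 7.09 in odorant GFP+ cells, against 13.96, 14.00, 14.23 and 13.55 in odorant GFP- cells. The vehicle arrays gave 7.57, 7.00, 6.71 and 7.29 in GFP+ cells, against 14.05, 14.37, 13.59 and 13.77 in GFP- cells. The arrays of each group were tight, and the difference was -7.10 ± 0.18 with the odorant (137-fold, adjusted p = 9.74e-09) and -6.80 ± 0.22 with vehicle (112-fold, adjusted p = 6.33e-08). Only 2 of the 4 odorant GFP+ arrays exceeded the background level, so the odorant fold is set against a signal at the floor. Olfr399 had 4.42, 4.35, 4.53 and 4.84 in odorant GFP+ cells, against 9.31, 9.52, 9.35 and 9.62 in odorant GFP- cells, and with vehicle 4.93, 4.93, 4.75 and 3.96 in GFP+ cells, against 9.66, 10.16, 8.90 and 9.06 in GFP- cells. It was under background on all 8 GFP+ arrays, and the signal was at least 6.41-fold and at least 6.94-fold lower with the odorant and with vehicle. Olfr139, next to it, was at least 2.81-fold lower with the odorant and at least 3.25-fold lower with vehicle. Olfr410 was higher with vehicle (1.04 ± 0.31, adjusted p = 0.0434) but not with the odorant (0.48 ± 0.19, adjusted p = 0.163). That call was lost with the pools of mice as a block (adjusted p = 0.0512) and in 7 of 8 fits that left out 1 array, all but GFP- array 3 (adjusted p 0.0745 to 0.0936).

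The same cluster held both MOR125 receptors, Olfr403 and Olfr43, which were higher in GFP+ cells under both treatments. Olfr43 had 12.81, 12.65, 13.10 and 13.05 in odorant GFP+ cells, against 11.30, 10.96, 12.22 and 11.95 in odorant GFP- cells. Under vehicle the signals were 13.42, 13.73, 13.05 and 13.23 in GFP+ cells, against 11.47, 11.96, 12.02 and 12.20 in GFP- cells. The fractions did not overlap, with differences of 1.30 ± 0.26 and 1.44 ± 0.20 (adjusted p = 0.00652 and 0.000536). For Olfr403 they were 1.13 ± 0.22 and 0.79 ± 0.18.

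MOR256, the largest family on the chromosome, had members at both ends of the range. Under each treatment 5 of the 20 were higher in GFP+ cells, 3 were lower and 12 did not pass, with a median difference of -0.11 with the odorant and -0.09 with vehicle, which turned positive (0.21 and 0.28) with array medians subtracted. Of the 28 MOR256 receptors on other chromosomes, 10 were higher and 5 lower with the odorant, and 9 and 5 with vehicle. Olfr222 had 14.62, 14.82, 15.44 and 15.31 in odorant GFP+ cells, against 10.93, 11.79, 12.33 and 12.28 in odorant GFP- cells. With vehicle it had 14.97, 15.28, 15.11 and 15.47 in GFP+ cells, against 11.32, 11.98, 12.81 and 12.67 in GFP- cells. Its signal was 9.28-fold higher in GFP+ cells with the odorant (difference 3.21 ± 0.31, adjusted p = 3.23e-05) and 8.07-fold higher with vehicle (3.01 ± 0.30, adjusted p = 5.21e-05), the largest rises among the 78 receptors. Its 2 neighbours of the same family, Olfr223 and Olfr225, were under background on all 16 arrays.

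Olfr1382 had 12.29, 12.31, 12.07 and 11.93 in odorant GFP+ cells, against 8.24, 8.35, 9.40 and 10.13 in odorant GFP- cells, and with vehicle 12.19, 12.68, 12.63 and 11.77 in GFP+ cells, against 8.94, 9.25, 10.02 and 9.33 in GFP- cells. It was 8.71-fold higher in GFP+ cells with the odorant and 7.64-fold higher with vehicle, with no overlap of the fractions. Olfr1389 was 6.51-fold higher with the odorant (2.70 ± 0.26) and 7.33-fold higher with vehicle (2.87 ± 0.27). Olfr1381 and Olfr1371 rose less, by 1.42 ± 0.28 and 1.44 ± 0.32 with vehicle. In the same family Olfr1384 had 5.48, 5.28, 4.80 and 5.08 in odorant GFP+ cells, against 12.04, 12.39, 12.19 and 11.78 in odorant GFP- cells. In vehicle mice its values were 4.87, 6.09, 5.13 and 6.15 in GFP+ cells, against 11.86, 12.79, 12.25 and 12.35 in GFP- cells. It exceeded background on every GFP- array and on no GFP+ array, and its signal there was lower by a factor of at least 40.3 with the odorant and 50.6 with vehicle. Olfr1395, the single MOR277 receptor of that cluster, was lower in GFP+ cells (-4.15 ± 0.30 with the odorant and -4.41 ± 0.37 with vehicle). Olfr1380, which has no MOR name, was higher in GFP+ cells (2.38 ± 0.45 and 2.06 ± 0.49, adjusted p = 0.00442 and 0.0145), although its GFP+ arrays 1 and 2 lay between 10.97 and 12.00 and arrays 3 and 4 between 9.48 and 10.20.

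The cluster from Olfr30 to Olfr311 was the most mixed by family, with 3 receptors higher and 7 lower with the odorant and 5 higher and 7 lower with vehicle. Its 6 MOR275 receptors held 1 higher and 3 lower under each treatment. Olfr329 had 14.63, 14.86, 14.07 and 13.88 in odorant GFP+ cells, against 12.09, 12.41, 11.76 and 12.23 in odorant GFP- cells, and with vehicle 14.71, 13.67, 13.65 and 13.83 in GFP+ cells, against 11.50, 11.25, 12.15 and 11.71 in GFP- cells. It was 4.72-fold higher in GFP+ cells with the odorant and 4.97-fold higher with vehicle. Olfr328 had 8.14, 8.07, 8.01 and 7.90 in odorant GFP+ cells, against 11.90, 13.51, 12.59 and 12.13 in odorant GFP- cells, and with vehicle 7.77, 8.26, 8.14 and 8.59 in GFP+ cells, against 12.58, 12.68, 12.11 and 10.95 in GFP- cells. It was 22.7-fold lower in GFP+ cells with the odorant and 14.8-fold lower with vehicle, the reverse of its neighbour. Olfr224, of the same family, was under background on all 8 GFP+ arrays and had 9.50 to 11.32 on the 8 GFP- arrays. It was at least 12.8-fold lower with the odorant and at least 13.8-fold lower with vehicle.

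Of the smaller families in that cluster, the 3 MOR222 receptors split the same way under both treatments. Olfr311 was higher in GFP+ cells (1.69 ± 0.38 with the odorant and 1.85 ± 0.22 with vehicle), and Olfr312 and Olfr313 were lower, with differences for Olfr312 of -1.98 ± 0.19 with the odorant and -1.58 ± 0.20 with vehicle. Olfr312 was at background in GFP+ cells, which leaves folds of at least 1.38 and at least 1.40. Olfr311 was at background in odorant GFP- cells, with a fold there of at least 2.71. Olfr315, 1 of 2 MOR278 receptors, had 10.78, 10.16, 10.31 and 10.71 in odorant GFP+ cells, against 7.98, 7.65, 8.07 and 8.70 in odorant GFP- cells, and with vehicle 10.14, 9.37, 10.36 and 9.33 in GFP+ cells, against 7.997, 7.78, 8.51 and 7.61 in GFP- cells. It was 5.25-fold higher in GFP+ cells with the odorant and 3.55-fold higher with vehicle. The 4 MOR285 receptors had positive differences throughout, and 2 of them, Olfr319 and Olfr316, passed the test with vehicle, against 0 of 4 with the odorant. That contrast depends on the scaling, since with array medians subtracted 3 passed with the odorant and 2 with vehicle. For Olfr319 the difference was 1.59 ± 0.52 with the odorant (adjusted p = 0.0829) and 1.47 ± 0.28 with vehicle (adjusted p = 0.00382). The 3 MOR129 receptors lie in another cluster, the one from Olfr1378 to Olfr54. Among them, Olfr1377 was higher in GFP+ cells under both treatments (2.39 ± 0.19 with the odorant and 2.10 ± 0.28 with vehicle). So was Olfr51 (1.41 ± 0.21 and 1.46 ± 0.27). The GFP- groups of Olfr1377 and Olfr51 were at background. The rise was thus at least 1.62-fold and at least 1.24-fold for Olfr1377, and at least 1.86-fold and at least 1.75-fold for Olfr51. Olfr1378 was lower with vehicle but at background in both fractions.

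**Figure D3:**
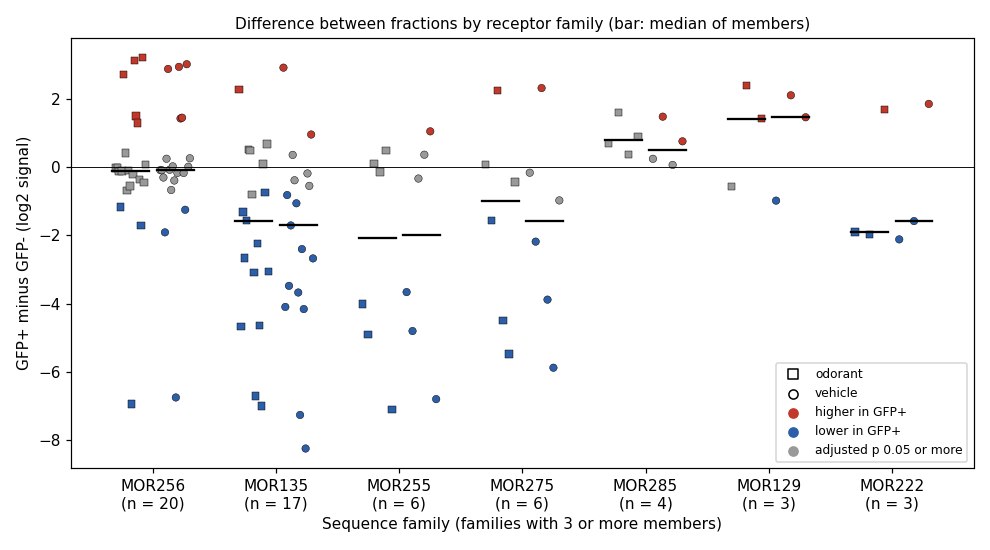
Difference between GFP+ and GFP- cells (log2 signal, GFP+ minus GFP-) for the receptors of the 7 families with 3 or more members, squares for the odorant and circles for vehicle, with the median of the family as a bar and colours for the call. MOR135 has medians of -1.57 with the odorant and -1.71 with vehicle, MOR255 has one of -2.08 with the odorant, MOR256 has a median near 0 with members from -6.94 to 3.21 with the odorant, and the 4 MOR285 receptors lie above 0.

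Presence above background shows falls to the floor, not changes of receptors that are measured in both fractions. Olfr1384, Olfr224, Olfr317, Olfr313, Olfr380, Olfr390, Olfr139 and Olfr399 exceeded the background level on all 8 GFP- arrays and on none of the 8 GFP+ arrays. They are 10.3% of the 78 receptors, beside 6.09% of the receptors on other chromosomes and 1.52% of all gene probesets. No receptor (0 of 78) did the reverse, beside 2.4% of the other receptors and 0.126% of all gene probesets. The nearest to it were Olfr1377 and Olfr51, with at least 7 GFP+ arrays and at most 1 GFP- array above the level. Of all gene probesets, 46.7% to 48.4% exceeded the level on a GFP+ array and 49.9% to 50.9% on a GFP- array. Another 39 receptors exceeded it on all 16 arrays and 9 on none (Olfr1390, Olfr1378, Olfr331, Olfr322, Olfr223, Olfr225, Olfr385, Olfr395 and Olfr401). Calls on receptors at background in both fractions, for which no fold is given, numbered 4 with the odorant (Olfr376, Olfr378, Olfr381 and Olfr395) and 2 with vehicle (Olfr1378 and Olfr378).

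The 7 clusters contain 71 pairs of adjacent receptors. With vehicle 6 pairs were both higher in GFP+ cells, 11 were both lower, 14 had neither receptor past the test, 31 had 1 past it, and 9 had 1 receptor higher and the other lower. Most of the pairs that were both lower lay in MOR135. Whether neighbours share a direction more often than any 2 called receptors was not tested. Of those 9 opposite pairs, 7 were of receptors of the same family. Most of the 71 adjacent pairs also join receptors of the same family. The 7 pairs therefore do not show that opposite calls gather within families. The widest gap was between Olfr410 and Olfr411, 1.04 and -6.80, of which the Olfr410 call is the unstable one described above. Next came Olfr376 and Olfr1 (2.91 and -4.10), Olfr329 and Olfr328 (2.31 and -3.89), Olfr330 and Olfr329 (-2.19 and 2.31), Olfr23 and Olfr397 (0.95 and -2.68) and Olfr312 and Olfr311 (-1.58 and 1.85). With the odorant 4 pairs had opposite calls, and with array medians subtracted the counts were 9 with the odorant and 10 with vehicle. The longest run of neighbours with falls was in MOR135, where the 6 receptors from Olfr384 to Olfr393 were all lower with vehicle. Within that run Olfr384 was the unstable one (-1.06, adjusted p = 0.0484), since its call was lost with the pools as a block (adjusted p = 0.0618) and in 6 of 8 fits that left out 1 array (GFP+ arrays 1, 3 and 4 and GFP- arrays 2, 3 and 4; adjusted p 0.0758 to 0.118).

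The comparison of the fractions was made in separate mice for each treatment. The odorant and vehicle comparisons share no array, and 39 receptors were called in both, 15 higher and 24 lower, with 0 called in opposite directions. They are 97.5% of the odorant calls and 84.8% of the vehicle calls. Such shares were not worked out for other receptors or for all gene probesets. The agreement is therefore not shown to be particular to chromosome 11. Another 31 receptors were called in neither. The differences of 62 receptors lay within 0.5 of each other in the 2 treatments, and across the 78 receptors the 2 sets of differences correlated with r = 0.986, a description across genes whose arrays were processed together. Called with vehicle alone were Olfr1378, Olfr319, Olfr316, Olfr384, Olfr23, Olfr59 and Olfr410, and with the odorant alone Olfr395. A call under 1 treatment only is no difference between treatments, and the test of that difference is the interaction given below. The call of Olfr59 was lost with the pools as a block (adjusted p = 0.0539) and in 5 of 8 fits without 1 array (GFP+ arrays 1, 3 and 4 and GFP- arrays 2 and 3; adjusted p 0.0546 to 0.0981). That of Olfr395 was lost in 6 of 8 (GFP+ arrays 1 to 4 and GFP- arrays 3 and 4; adjusted p 0.0534 to 0.0907).

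The odorant was compared with vehicle within each fraction, the question being which receptors gain transcripts among GFP+ cells when their neurons are stimulated. By limma, no receptor of the chromosome passed the test in GFP+ cells, in GFP- cells or in the interaction, and neither did any gene probeset (0 of 22206 in each). At an unadjusted p under 0.05 there were 9 of 78 receptors in GFP+ cells, 4 with a positive and 5 with a negative difference. Beside them were 60 of the 1002 receptors on other chromosomes and 3.82% of all gene probesets. In GFP- cells there were 2 of 78, both negative, beside 106 of the 1002 other receptors and 6.84% of all gene probesets. In the interaction there were 2 of 78, both positive, beside 31 of the 1002 and 4.92%. Whether these shares differ was not tested. The median difference between odorant and vehicle was -0.12 in GFP+ cells and -0.09 in GFP- cells, and the interaction had a median of 0.02.

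In GFP+ cells the smallest p was that of Olfr385, a MOR135 receptor with 5.70, 5.59, 5.68 and 6.05 in odorant mice, against 4.97, 4.77, 4.92 and 5.54 in vehicle mice. The odorant arrays lay above the vehicle arrays, by 0.71 ± 0.19, but all 8 were under background (unadjusted p = 0.00322, adjusted p = 0.999). Olfr393 differed by 1.01 ± 0.33 and was near background in both groups, at 7.14 ± 0.53 in odorant GFP+ cells and 6.13 ± 0.62 in vehicle GFP+ cells (SD, n = 4 each). Olfr410 had 9.21, 9.29, 9.27 and 9.24 in odorant GFP+ cells, against 9.64, 9.57, 9.51 and 9.66 in vehicle GFP+ cells, a difference of -0.34 ± 0.12 between groups that did not overlap. Olfr1 differed by -1.01 ± 0.36 and Olfr1378 by 0.57 ± 0.20, both at background in both groups. For all 5 the adjusted p was 0.999.

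In GFP- cells Olfr403 had 11.83, 11.69, 12.65 and 12.31 in odorant mice, against 12.47, 12.71, 13.02 and 12.91 in vehicle mice. The groups overlapped, and the difference of -0.66 ± 0.23 did not pass (unadjusted p = 0.0145, adjusted p = 0.708). Olfr381, Olfr1380, Olfr329 and Olfr332 followed, with differences of -0.45, -0.79, 0.47 and -0.45 and adjusted p from 0.708 to 0.743. The interaction was 1.25 ± 0.44 for Olfr393 and 0.87 ± 0.35 for Olfr385, 0.82 for Olfr380, 0.63 for Olfr330 and -0.71 for Olfr464, all with an adjusted p of 0.962.

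The 95% intervals give the precision of the comparison between odorant and vehicle. In GFP+ cells 25 of the 78 receptors were at background in both groups, and their intervals say nothing about a response. Of the other 53, the upper bound was under 1 log2 unit for 42, and the interval lay wholly within 1 unit of 0 for 30. In GFP- cells 14 were at background in both groups, and of the other 64 the upper bound was under 1 for 60 and the interval within 1 unit of 0 for 48. The median half-width over the receptors not at background in both groups was 0.62 in GFP+ cells and 0.585 in GFP- cells. The interaction was less precise, with a median half-width of 0.885 over the 78 receptors. These intervals are not adjusted for the 78 receptors. The widest belonged to Olfr323, the single MOR107 receptor, named after its values were seen. It had 11.63, 4.09, 9.81 and 11.63 in odorant GFP+ cells, against 4.59, 4.56, 10.21 and 8.06 in vehicle GFP+ cells. In GFP- cells it had 6.51, 4.68, 6.55 and 7.35 with the odorant, against 4.14, 4.41, 7.13 and 4.61 with vehicle. Array 2 with the odorant and arrays 1 and 2 with vehicle were under background in GFP+ cells while the other arrays were well above it, so the 4 pools of each group fell apart. The difference in GFP+ cells was 2.43 (95% interval -1.31 to 6.18, adjusted p = 0.999).

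**Figure D4:**
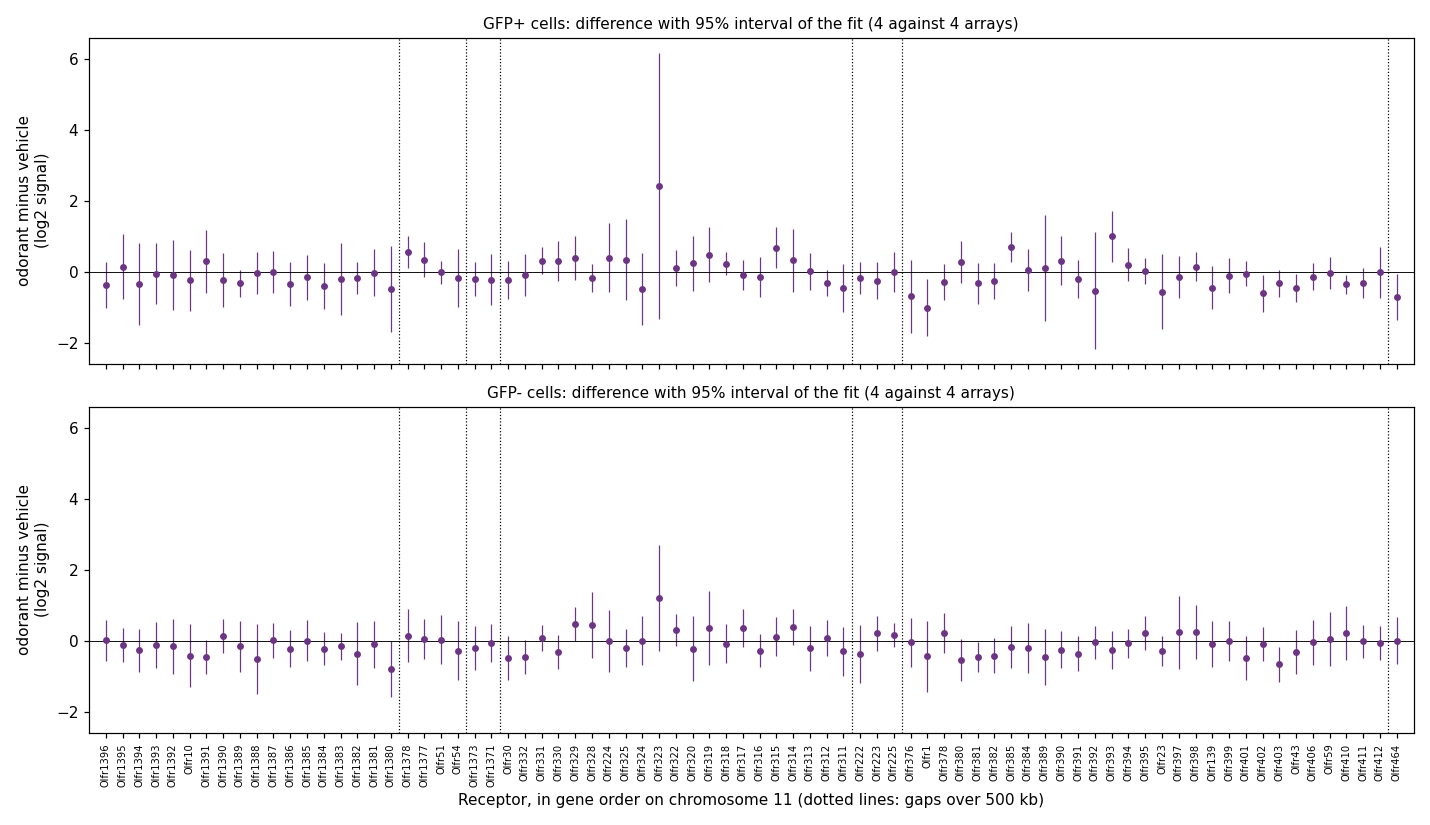
Difference between odorant and vehicle (log2 signal, odorant minus vehicle) with its 95% interval for the 78 receptors in gene order, in GFP+ cells above and GFP- cells below. The points lie around 0, from -1.01 to 2.43 in GFP+ cells and from -0.79 to 1.20 in GFP- cells, and the interval of Olfr323 is the widest in both panels.

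Of 18 genes of receptor choice and transcription, 0 were higher and 1 lower in GFP+ cells with the odorant, and 2 were higher and 2 lower with vehicle. Ebf1 and Emx2, transcription factors that act on receptor genes, were higher with vehicle, by 0.44 ± 0.12 and 0.48 ± 0.14, and their differences with the odorant were 0.09 and 0.18. Lbr, the lamin B receptor, which tethers heterochromatin to the nuclear envelope, was lower (-0.95 ± 0.26 with the odorant and -1.08 ± 0.23 with vehicle), and Cbx3, a heterochromatin protein, was lower with vehicle (-0.43 ± 0.13). The factors Lhx2 and Ldb1 did not pass, with differences of -0.10 and -0.18 with the odorant and -0.03 and -0.11 with vehicle. The 8 measured genes of receptor trafficking did not pass under either treatment. Among them are Rtp1 and Rtp2, which carry receptors to the cell surface, with differences of 0.13 and 0.25 with the odorant and 0.08 and 0.27 with vehicle. The chaperone gene Hspa1b had the largest differences of that list, -1.63 ± 0.48 with the odorant (adjusted p = 0.0507) and -1.07 ± 0.40 with vehicle (adjusted p = 0.0974). Of 13 markers of mature olfactory sensory neurons, 1 was higher with the odorant and 2 with vehicle, and 0 were lower.

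Markers of other cells differed far more. Of 10 immature neuron markers, GFP+ cells had lower signals for 6 under each treatment, among them Gng8 (-4.77 ± 0.29 with the odorant and -4.82 ± 0.26 with vehicle) and Nhlh1 (-5.21 ± 0.23 and -5.27 ± 0.26), which had the largest falls of the list and exceeded background on 0 GFP+ arrays. Dcx (0.25 with the odorant and 0.23 with vehicle) and Ncam1 (0.10 and 0.24) had positive differences that did not pass. The mean level of that list per array was 10.0 to 10.1 in odorant GFP+ cells and 12.0 to 12.3 in odorant GFP- cells, and 9.92 to 10.2 in vehicle GFP+ cells and 12.1 to 12.5 in vehicle GFP- cells. Also lower in GFP+ cells were 6 of 7 markers of globose basal and dividing cells under each treatment, 7 of 8 of microvillar cells under each, 4 of 9 of sustentacular cells with the odorant and 8 of 9 with vehicle, and 2 of 6 of Bowman glands with the odorant and 3 of 6 with vehicle. The 1 measured red blood cell marker was lower under each treatment. Of the immune markers, S100a8 differed by -8.69 ± 0.48 with the odorant and -9.10 ± 0.53 with vehicle. The receptors that were lower in GFP+ cells moved in the same direction as these lists, and the part of the lists in those differences was not tested. The Omp level given above was nearly the same in all 4 groups. It was not used to estimate the share of neurons in either fraction.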

How the data were processed

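Transcripts of FACS-sorted GFP+ and GFP- olfactory cells were measured on 16 Clariom S mouse arrays, 4 in each of 4 groups given by the labels. The authors deposited 1 table of log2 probeset signals. It was made with Affymetrix Expression Console, per the submitters' processing notes, and the version, the background correction, the normalization and the genome build have no statement in those notes or in the labels. Background left in the signals would understate folds of dim receptors. All 16 columns matched a sample by its label, and 0 columns were left over. The 6640 control probesets among 28846 rows were left out of the tests. The number of arrays limits the precision.

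Differences were tested on the log2 values with limma 3.58.1 (lmFit and eBayes, R 4.3.3) as two-sided tests. These fits had no term for the pool, so the fractions of a pool were not paired in them. P-values were adjusted by the Benjamini-Hochberg method across the 22206 gene probesets, and an adjusted p under 0.05 was called. There were 5 comparisons: GFP+ against GFP- cells with the odorant and with vehicle, odorant against vehicle in each fraction (8 arrays each), and the interaction (16 arrays). The odorant comparisons share arrays with the fraction comparisons. Errors after ± are SE for differences and SD for means. A group was at background if no array exceeded the 95th percentile of the antigenomic probesets or if its mean did not exceed the mean of that level. Folds against a group at background are lower bounds, and no fold is given where both groups were at background.

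GFP+ and GFP- arrays of a number come from the same mice, as 24 mice in pools of 3 and the shared numbers imply. Their deviations from group means correlated by 0.113 to 0.156 with vehicle and 0.014 to 0.356 with the odorant. Odorant and vehicle arrays share only a number. Alternatives were 2 other scalings, a filter on dim probesets, a variance trend with robust fitting, all arrays in 1 fit, the number as a block, arrays left out and the arrays numbered 4 left out. The fit was tested on simulated data.

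The members and the lists were chosen with earlier results of these data known. Receptors named are the 10 largest called differences in each direction in the fraction comparisons, the 5 smallest p in the others, and the 6 neighbouring pairs with the widest opposite calls. Every other receptor named, such as those with printed windows or unstable calls, was chosen after its values were seen. Other parts of the rule, on protein identity and on the ortholog of a human receptor, could not be applied with the tables used here. Gene order, families and upstream windows are from RefSeq (GRCm38.p6), with motifs searched in Python 3.11.15, identities from Biopython 1.88 and figures from matplotlib 3.10.9.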

Additional observations from a re-analysis of the deposited data

Results flagged for a closer look

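In 136 groups of 4 arrays, from the 34 receptors tested, 4 had 1 array far from the other 3 by Dixon's test. This share is below the about 1 in 20 that chance alone gives, so the 4 groups do not stand out as a set. Olfr23 had 7.81 on vehicle GFP- array 4, against 8.03 to 8.04 on the other arrays of the group, a narrow range in which a small gap is enough. Olfr323 had 7.13 on vehicle GFP- array 3, against 4.14 to 4.61 on the others, and its GFP+ signal also differed between pools. Olfr330 had 13.24 on odorant GFP- array 2, against 12.47 to 12.55. Olfr380 had 8.39 on vehicle GFP- array 4, against 8.22 to 8.25.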

How the results depend on the processing

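No called difference turned its direction under any alternative run, but the medians of the 78 receptors and of MOR256 turned positive with array medians subtracted, as given above. With that scaling, the receptors higher in GFP+ cells with the odorant numbered 24 in place of 15, while the gene probesets called higher numbered 7757 in place of 793. The other counts of called receptors stayed within 1.5 times of the values reported, and odorant against vehicle and the interaction kept 0 called receptors throughout. Leaving out 1 array at a time gave 15 to 17 receptors higher and 24 to 27 lower in GFP+ cells with the odorant, and 17 to 20 higher and 24 to 27 lower with vehicle. With the number as a replicate block, which pairs the fractions of a pool, there were 17 higher and 25 lower with the odorant and 18 higher and 27 lower with vehicle. The block removed the calls of Olfr384, Olfr410 and Olfr59 and no other call of the 78 receptors, and it gave 0 calls for odorant against vehicle, where the numbers pair nothing. Without the arrays numbered 4, Olfr1391 (adjusted p = 0.071) and Olfr395 (0.201) lost their calls with the odorant. In that setting Olfr23, Olfr384, Olfr410 and Olfr59 lost theirs with vehicle (0.0874 to 0.187). Under quantile normalization Olfr378 (0.159) and Olfr384 (0.128) lost their calls with vehicle. With array medians subtracted Olfr395 lost its call with the odorant (0.11), and Olfr378, Olfr384 and Olfr59 theirs with vehicle (0.0759 to 0.0985). Olfr23 lost its call with vehicle with all 16 arrays in 1 fit (0.117). Over all gene probesets, 3 were higher with the odorant in GFP+ cells without vehicle GFP+ array 4, and 3 without the arrays numbered 4. In the interaction 1 was called, with a positive difference, without vehicle GFP- array 1. None of these was a receptor of chromosome 11. The causes were not tested. The 9 receptors under background on all 16 arrays limit what can be said of them.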
